A study of Mus musculus with 9 samples.

Results

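The transcripts of 10 genes of the Polycomb repressive complexes were followed in 8-cell mouse embryos. They were *Ezh1*, *Ezh2*, *Eed*, *Suz12* and *Jarid2* of Polycomb repressive complex 2 (PRC2), and *Ring1*, *Rnf2*, *Bmi1*, *Pcgf6* and *Kdm2b* of Polycomb repressive complex 1 (PRC1). The members were taken by gene symbol, and all 10 had 1 row in every library among 55335 rows. ICR zygotes made by in vitro fertilization had received siRNA (25 µM), and the embryos were collected at the 8-cell stage. The methods give female mice of 6 to 8 weeks as young animals, besides aged females, and males of 10 to 20 weeks, and do not tie an age to these embryos. The control group had received nontargeting siRNA, the MFN1-KD group siRNA against *Mfn1*, the gene of a mitochondrial fusion GTPase, and the H3.3-KD group siRNA against *H3f3a* and *H3f3b*, which encode the replication-independent histone variant H3.3. Each group had 3 libraries made by Smart-Seq2, a full-length cDNA method primed with oligo-dT, and each library was a pool of embryos. The labels give 5 to 10 embryos per group and the methods give 10 embryos in each group, and whether the pools of a group came from separate injections is not stated, so the p-values measure the spread between these pools.

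PRC2 places methyl groups on lysine 27 of histone H3 (H3K27me3), through EZH2 or its paralog EZH1 together with the core subunits EED and SUZ12. PRC1 ubiquitinates histone H2A on a lysine of its tail through RNF2 (RING1B) or its paralog RING1 (RING1A), and the PCGF subunit that joins them decides which form of PRC1 is built. Both complexes keep developmental regulators silent in embryonic stem cells, and in the preimplantation embryo PRC2 also maintains a class of imprints that rests on maternal H3K27me3.

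Levels are given as FPKM, a fragment count divided by gene length and by the size of the library. Differences are log2 fold changes of FPKM + 1 from one limma model of all 9 libraries, fitted to 13011 genes whose mean over the libraries reached 1 FPKM. The p-values were adjusted over all of these genes by the method of Benjamini and Hochberg. The siRNA targets were lower in their own groups. *Mfn1* lay between 22.6 and 51.6 FPKM in control and between 1.15 and 9.54 in MFN1-KD (log2 fold change -2.66, adjusted p = 0.0431, and 0.0537 to 0.152 without any 1 control library, H3.3-KD replicate 1 or 2, or MFN1-KD replicate 2 or 3). *H3f3a* changed by -3.69 and *H3f3b* by -3.64 in H3.3-KD. Genes above 0 FPKM numbered 21643 to 22507 per control library, 23655 to 24820 per H3.3-KD library and 15577 to 20842 per MFN1-KD library, and MFN1-KD replicate 3 stood apart with the lowest number. All 10 markers of the 8-cell embryo were detected in each group, with *Gata3* at 0 in MFN1-KD replicate 3, and their summed level was 1383 to 1588 FPKM in control, 460 to 1287 FPKM in MFN1-KD (lowest in replicate 3 again) and 1763 to 2177 FPKM in H3.3-KD. *Obox6* gave most of the control sum, with 1078 to 1305 FPKM in control, 175 to 970 in MFN1-KD and 982 to 1293 in H3.3-KD. In H3.3-KD *Klf17* (195 to 401 FPKM, 29.8 to 50.1 in control) and *Pou5f1* (63.1 to 392, 5.1 to 8.9 in control) were higher. *Sall4* was lower there (42.7 to 50.7 FPKM, 106 to 139 in control). Summed levels of 8 oocyte transcripts were 76.3 to 81.6, 29.9 to 100.1 and 45.0 to 164 FPKM in control, MFN1-KD and H3.3-KD, and *Oog1* gave 102 of the 164 FPKM in H3.3-KD replicate 2. For 10 cumulus and granulosa cell genes the sums in the same order were 16.2 to 30.04, 10.6 to 19.4 and 38.7 to 67.1 FPKM, and *Cyp11a1*, *Fshr* and *Inhba* were at 0 in every library. Nearly all of these sums came from *Amhr2* (16.1 to 29.8, 10.2 to 19.3 and 38.01 to 66.1 FPKM), the 1 gene of the 10 that exceeded 1 FPKM in any library. For 5 sperm genes the sums were 1.68 to 2.93, 0 to 0.78 and 0.09 to 0.89 FPKM. The part of these differences in the results below was not tested. In pools of whole embryos, fewer cells that express a gene and less of its RNA per cell cannot be told apart.

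The promoters of *Ezh1* and *Ring1*, the less abundant enzymes that rose after H3.3 knockdown, and of *Suz12*, a core subunit that differed in the other direction between the knockdowns, are shown for the 250 bases before the transcription start (RefSeq, GRCm38.p6). CpG dinucleotides, the sequence that KDM2B binds when unmethylated, are in capitals.
Ezh1, chr11:101226464-101226713, minus strand: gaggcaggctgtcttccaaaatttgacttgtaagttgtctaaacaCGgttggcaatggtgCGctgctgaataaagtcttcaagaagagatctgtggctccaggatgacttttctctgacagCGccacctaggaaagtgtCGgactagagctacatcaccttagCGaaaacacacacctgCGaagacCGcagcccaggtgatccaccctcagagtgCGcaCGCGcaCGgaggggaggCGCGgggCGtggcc
Ring1, chr17:34024681-34024930, minus strand: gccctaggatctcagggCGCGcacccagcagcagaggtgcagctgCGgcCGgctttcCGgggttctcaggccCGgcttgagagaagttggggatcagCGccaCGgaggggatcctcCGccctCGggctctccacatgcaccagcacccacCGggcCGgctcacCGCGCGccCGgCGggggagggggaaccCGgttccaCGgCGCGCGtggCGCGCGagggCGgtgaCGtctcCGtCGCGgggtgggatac
Suz12, chr11:79992856-79993105, plus strand: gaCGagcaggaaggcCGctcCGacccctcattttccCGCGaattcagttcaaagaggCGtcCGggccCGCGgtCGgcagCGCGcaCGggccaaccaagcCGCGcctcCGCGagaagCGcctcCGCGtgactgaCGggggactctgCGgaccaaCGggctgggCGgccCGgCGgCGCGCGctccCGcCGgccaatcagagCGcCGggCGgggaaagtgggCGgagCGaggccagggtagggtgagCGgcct
The *Ezh1* window holds 14 CpG and is 55.2% GC, the *Ring1* window holds 30 and is 73.6% GC, and the *Suz12* window holds 37 and is also 73.6% GC. The median of 32851 promoter windows of this length is 6 CpG and 52.4% GC. All 10 members had a promoter entry, and 4 kinds of motif were searched on both strands of each window. These were E2F (TTTGGCGC, TTTCGCGC, TTTCCCGC or TTTGCCGC), NRF1 (GCGCATGC), ETS (CCGGAAGT) and YY1 (AAGATGGC), found in 1.86%, 2.26%, 2.88% and 1.56% of all windows. The single match among the members was TTTCCCGC in the *Suz12* window, 219 bases before the start.

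In control embryos the members spanned a wide range of levels. *Eed*, the subunit that reads H3K27me3, was the most abundant at 217 ± 6.78 FPKM (SD, n = 3), a level above that of 94.1% of the genes tested. It was followed by *Ezh2* (108 ± 37.3) and *Rnf2* (91.8 ± 5.29), by *Suz12* (70.7 ± 13.3) and *Pcgf6* (69.6 ± 9.47), and by *Kdm2b* (27.4 ± 7.43) and *Bmi1* (22.4 ± 4.55). Within each of these pairs the ranges overlapped. The range of *Ezh2* (75.4 to 148 FPKM) also overlapped those of *Suz12* (59.6 to 85.5) and *Pcgf6* (59.1 to 77.5). *Jarid2* (12.2 ± 2.96), *Ezh1* (6.17 ± 1.2) and *Ring1* (0.833 ± 0.433) came last without overlap. In MFN1-KD, *Ezh2* and *Eed* shared the first place with overlapping ranges, whereas in H3.3-KD *Rnf2* overlapped with *Eed* at the top and *Pcgf6* stood above *Ezh2*. *Ring1* remained the lowest member by mean level in every group.

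**Figure D1:**
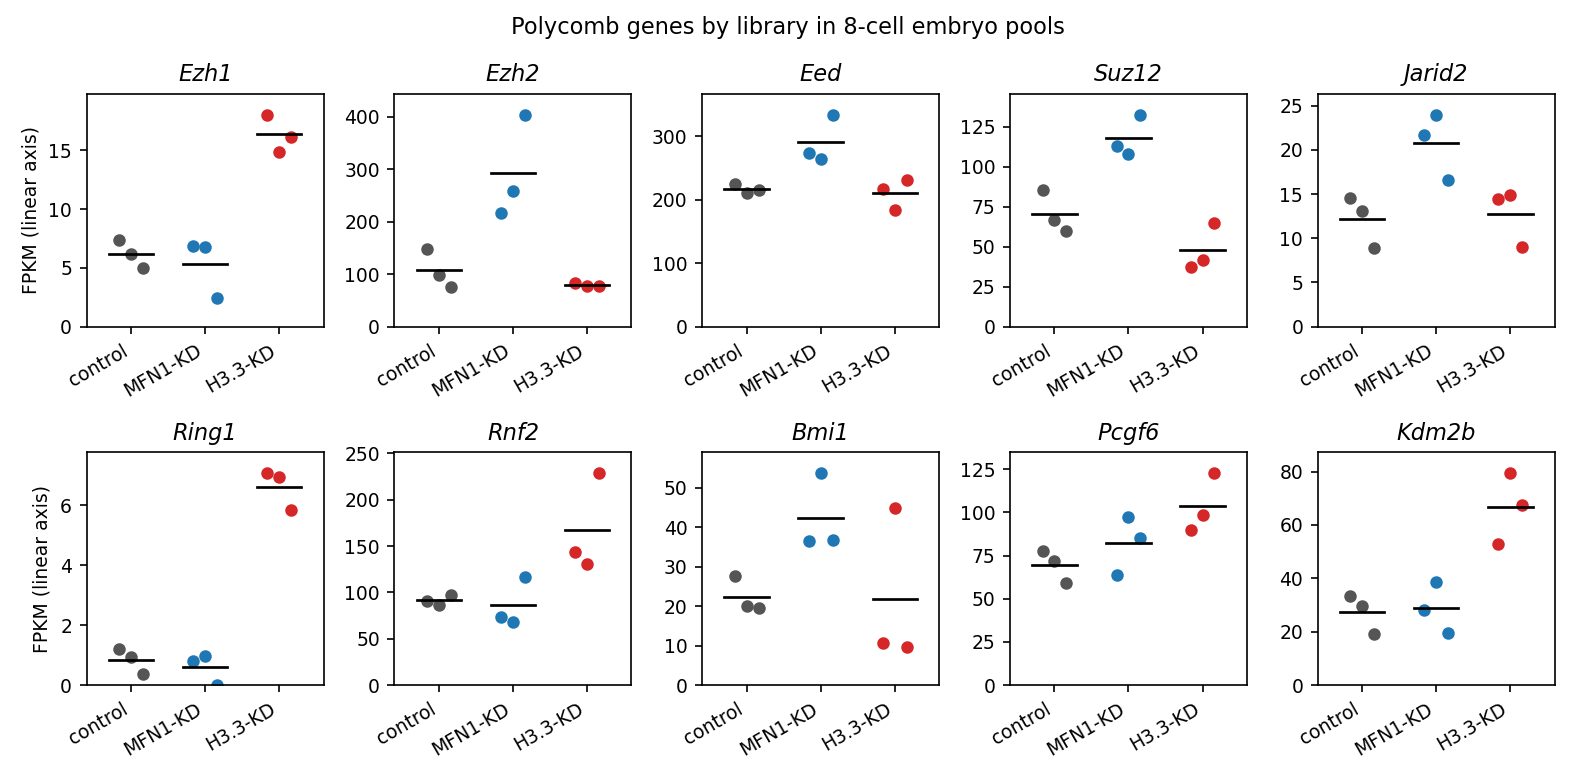
FPKM of the 10 Polycomb genes (linear axes from 0, a separate scale per gene) in each library of control, MFN1-KD and H3.3-KD. Points are libraries 1 to 3 from left to right and bars are means. *Ezh2* is highest in the 3 MFN1-KD libraries, and *Ezh1*, *Ring1* and *Kdm2b* are highest in the 3 H3.3-KD libraries.

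The paralogous methyltransferases of PRC2 changed in different knockdowns. *Ezh2*, the main enzyme of dividing cells, measured 148, 98.9 and 75.4 FPKM in control replicates 1 to 3, 216, 257 and 404 in MFN1-KD, and 83.3, 78.4 and 76.6 in H3.3-KD. All MFN1-KD libraries lay above all others, while the H3.3-KD libraries lay within the control range. The mean rose 2.72-fold in MFN1-KD (log2 fold change 1.44, SE 0.30, adjusted p = 0.0382). This call held in 9 of 19 alternative settings (adjusted p 0.00971 to 0.161), and it was lost without MFN1-KD replicate 3 (1.18, adjusted p = 0.0635), without any 1 control library (adjusted p 0.0524 to 0.161) and without H3.3-KD replicate 1 (0.0614) or 2 (0.0706). In H3.3-KD the difference from control was -0.38 (adjusted p = 0.362). Between the knockdowns the difference was -1.82 (H3.3-KD against MFN1-KD, adjusted p = 0.00107), and it was called in 19 of 19 alternatives.

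*Ezh1*, the paralog that prevails in resting cells, measured 7.35, 6.20 and 4.95 FPKM in control, 6.85, 6.74 and 2.44 in MFN1-KD, and 18.03, 14.9 and 16.2 in H3.3-KD. Every H3.3-KD library was above every other library, and MFN1-KD overlapped with control. The mean rose 2.65-fold in H3.3-KD (1.29, SE 0.37, adjusted p = 0.0231, called in 9 of 18 alternatives). It was lost without control replicate 2 (adjusted p = 0.0702) or 3 (0.0914), without H3.3-KD replicate 1 (0.0681), 2 (0.0553) or 3 (0.0565), and with upper-quartile scaling (0.0727). In MFN1-KD the difference was -0.26 (adjusted p = 0.716). H3.3-KD exceeded MFN1-KD by 1.54 (adjusted p = 0.00787), in 18 of 18 alternatives.

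The ratio of the paralogs followed from both changes. *Ezh2* was 20.2, 15.9 and 15.2 times the level of *Ezh1* in the control libraries, 31.6, 38.2 and 165.5 times after *Mfn1* knockdown, and 4.62, 5.27 and 4.74 times after H3.3 knockdown. The 3 groups did not overlap, and the ratio of MFN1-KD replicate 3 stood apart. On the log2 scale, with 1 added to each FPKM, the ratio was 1.70 higher than control after *Mfn1* knockdown and fell by 1.66 after H3.3 knockdown. Each difference had a two-sided exact permutation p of 0.10 (0.13 adjusted over the 4 ratio tests), the smallest that 3 against 3 libraries can give. *Ezh2* made up 93.8 to 95.3% of the summed FPKM of the pair in the control libraries, 96.9 to 99.4% in those of MFN1-KD and 82.2 to 84.0% in those of H3.3-KD.

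**Figure D2:**
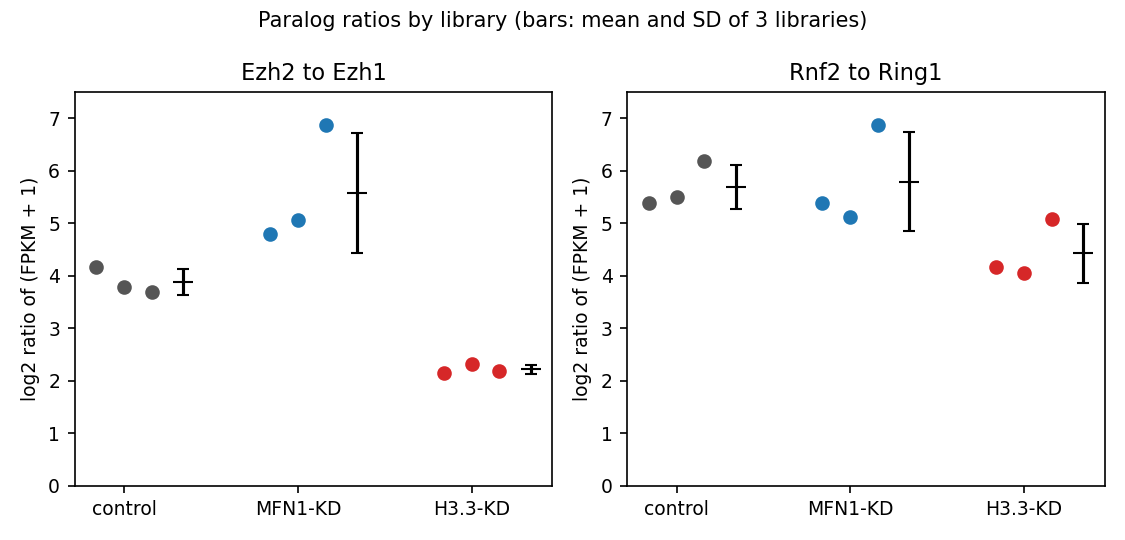
Log2 ratio of (FPKM + 1) of *Ezh2* to *Ezh1* and of *Rnf2* to *Ring1* in each library of control, MFN1-KD and H3.3-KD, with the mean and SD of 3 libraries as bars. The *Ezh2* to *Ezh1* ratios of the 3 groups do not overlap, and both ratios are lowest in H3.3-KD.

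The core subunits *Suz12* and *Eed* did not pass the test against control. *Suz12*, which holds the complex together, measured 85.5, 66.9 and 59.6 FPKM in control, 113, 108 and 133 in MFN1-KD, and 37.1, 41.7 and 64.6 in H3.3-KD. MFN1-KD lay wholly above control and H3.3-KD overlapped with it at its replicate 3. Neither difference passed the test (0.74, adjusted p = 0.128, and -0.58, adjusted p = 0.119), although the second passed with median-ratio scaling (-0.92, adjusted p = 0.0313), with upper-quartile scaling (-1.002, adjusted p = 0.0175), with library weights (-0.64, adjusted p = 0.00932) and without H3.3-KD replicate 3 (-0.81, adjusted p = 0.0376). The direct comparison of H3.3-KD with MFN1-KD gave -1.32 (adjusted p = 0.00295), called in 18 of 19 alternatives. *Eed* measured 224, 211 and 215 FPKM in control, 273, 264 and 334 in MFN1-KD, and 216, 184 and 231 in H3.3-KD. It was above the control range in MFN1-KD without passing the test (0.41, adjusted p = 0.214), and overlapped with control in H3.3-KD (-0.048, adjusted p = 0.871). Between the knockdowns *Eed* differed by -0.46 (adjusted p = 0.0730), and by -0.88 with median-ratio (adjusted p = 0.0156) and -0.95 with upper-quartile scaling (adjusted p = 0.00634).

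*Jarid2*, an accessory subunit that helps PRC2 bind chromatin, measured 14.6, 13.0 and 8.84 FPKM in control, 21.7, 24.0 and 16.6 in MFN1-KD, and 14.4, 14.9 and 9.04 in H3.3-KD. The MFN1-KD libraries were again above all control libraries (0.74, adjusted p = 0.186). The H3.3-KD libraries were not separated from control (0.065, adjusted p = 0.899, and -0.26 with median-ratio scaling). H3.3-KD against MFN1-KD gave -0.67 (adjusted p = 0.110), and -1.06 with median-ratio (adjusted p = 0.0114) and -1.13 with upper-quartile scaling (adjusted p = 0.0100).

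Among the PRC1 ubiquitin ligases, *Ring1* showed the largest difference of the 10 members in H3.3-KD. It measured 1.21, 0.93 and 0.36 FPKM in control and 7.07, 6.95 and 5.83 in H3.3-KD. In the MFN1-KD libraries it measured 0.80 and 0.98 and was listed at 0 in replicate 3. The H3.3-KD libraries lay far above all others. *Ring1* passed the filter of a mean of 1 FPKM only through its level in H3.3-KD, while the other 9 members passed it in every group, so a difference was built into its being tested. The mean was 7.94-fold higher in H3.3-KD (2.08, SE 0.37, adjusted p = 0.00228), with an adjusted p of 0.00818 when no filter was applied. H3.3-KD exceeded MFN1-KD by 2.31 (adjusted p = 0.000893, and 0.00358 with no filter), and MFN1-KD differed from control by -0.23 (adjusted p = 0.745).

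*Rnf2*, the ligase that carries most PRC1 activity in embryonic stem cells, measured 91.2, 86.8 and 97.4 FPKM in control, 74.0, 67.9 and 116 in MFN1-KD, and 144, 130 and 229 in H3.3-KD. All H3.3-KD libraries were above the others. The 1.83-fold rise in H3.3-KD was close to the threshold (0.82, SE 0.28, adjusted p = 0.0475) and held in 8 of 19 alternatives. It was lost with median-ratio (0.47, adjusted p = 0.327) and upper-quartile scaling (0.39, adjusted p = 0.375) and without any 1 of the control or H3.3-KD libraries (adjusted p 0.0521 to 0.15) or without MFN1-KD replicate 1 (adjusted p = 0.0562). Against MFN1-KD the difference was 0.95 (adjusted p = 0.0214, called in 12 of 19 alternatives). It missed the threshold without H3.3-KD replicate 3 (0.70, adjusted p = 0.0710) and without MFN1-KD replicate 1 (0.86, adjusted p = 0.0618) or 2 (0.80, adjusted p = 0.0659). It also missed it with median-ratio (0.53, adjusted p = 0.244) and upper-quartile scaling (0.47, adjusted p = 0.271), with no filter (adjusted p = 0.0589) and in the fit of the 6 libraries compared (adjusted p = 0.0570). *Rnf2* made up 98.7 to 99.6% of the summed FPKM of the ligase pair in control and 94.9 to 97.5% in H3.3-KD. The log2 ratio of *Rnf2* to *Ring1* fell by 1.26 in H3.3-KD without overlap (two-sided exact permutation p = 0.10, 0.13 adjusted), and overlapped with control in MFN1-KD (0.10, exact permutation p = 1.00). As *Ring1* passed the filter only through its level in H3.3-KD, this fall is no separate evidence of a change. *Ring1* was at 0.36 to 1.21 FPKM in control, so the added 1 FPKM weighs on its size. Without it the ratios were 75.39, 93.35 and 270.4 in control and 20.36, 18.74 and 39.22 in H3.3-KD.

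Of the members that specify the form of PRC1, *Kdm2b* passed the test in H3.3-KD. *Kdm2b*, which brings a variant PRC1 to unmethylated CpG, measured 33.5, 29.6 and 19.1 FPKM in control, 28.2, 38.6 and 19.5 in MFN1-KD, and 52.8, 79.4 and 67.6 in H3.3-KD. Every H3.3-KD library exceeded the rest. The mean rose 2.43-fold (1.27, SE 0.32, adjusted p = 0.0133, called in 16 of 19 alternatives), and missed the threshold without control replicate 3 (1.04, adjusted p = 0.0639) or H3.3-KD replicate 2 (1.13, adjusted p = 0.0557). MFN1-KD differed from control by 0.053 (adjusted p = 0.951), and H3.3-KD from MFN1-KD by 1.22 (adjusted p = 0.0129, and 0.0543 without H3.3-KD replicate 2 or 0.0564 with upper-quartile scaling). *Pcgf6*, the PCGF subunit of a variant PRC1 that represses germ cell genes, measured 77.5, 72.1 and 59.1 FPKM in control, 64.0, 97.4 and 85.4 in MFN1-KD, and 89.5, 98.7 and 122.7 in H3.3-KD. The H3.3-KD libraries were above control, with a difference that did not pass the test (0.56, adjusted p = 0.0990). It passed in 1 of 19 alternatives, with library weights (0.49, adjusted p = 0.0299).

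*Bmi1*, a PCGF subunit of canonical PRC1, was the most variable member in H3.3-KD relative to its mean. It measured 27.6, 20.01 and 19.5 FPKM in control, 36.6, 53.7 and 36.7 in MFN1-KD, and 10.7, 44.9 and 9.56 in H3.3-KD. Replicates 1 and 3 of H3.3-KD were below every control library and replicate 2 was above them. With all libraries the difference from control was -0.37 (adjusted p = 0.604), and without H3.3-KD replicate 2 it was -1.06 (adjusted p = 0.0414). The MFN1-KD libraries were above control without passing the test (0.88, adjusted p = 0.320). H3.3-KD against MFN1-KD gave -1.26 (adjusted p = 0.0688), and -1.94 (adjusted p = 0.00270) without the same library. It was -1.65 (adjusted p = 0.0193) with median-ratio and -1.72 (adjusted p = 0.0166) with upper-quartile scaling.

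**Figure D3:**
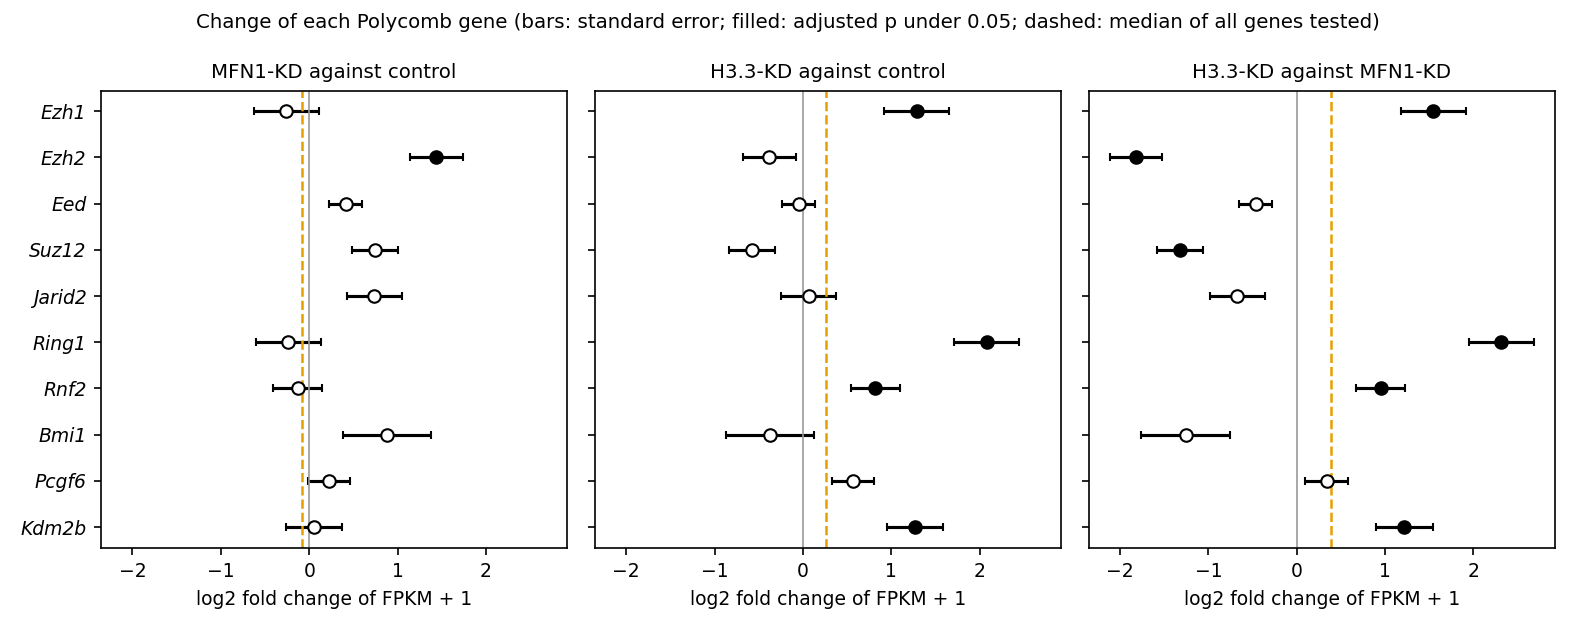
Log2 fold change of FPKM + 1 with its standard error for the 10 Polycomb genes in the 3 comparisons. Filled points had an adjusted p under 0.05 and the dashed line is the median of all 13011 genes tested (-0.085, 0.26 and 0.39 from left to right). *Ezh1*, *Ring1*, *Rnf2* and *Kdm2b* are filled on the right side of 0 in both comparisons of H3.3-KD, and *Ezh2* is filled in MFN1-KD against control and, to the left, between the knockdowns.

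Counted together, 1 of the 10 members rose in MFN1-KD at an adjusted p under 0.05 (*Ezh2*), beside 1.15% of all genes tested. None fell, beside 2.2% of all genes, and at an unadjusted p under 0.05 limma gave 4 higher (9.21% of all genes) and 0 lower (14%). In H3.3-KD 4 were higher (*Ezh1*, *Rnf2* and *Kdm2b*, and *Ring1*, which was tested only because of its level there), beside 21.8% of all genes, and 0 fell, beside 9.12%. At an unadjusted p under 0.05 these counts were 5 (28.9% of all genes) and 1 (13.2%). With median-ratio scaling 3 were higher and 1 lower (*Suz12*), and with upper-quartile scaling 2 and 1. In H3.3-KD against MFN1-KD the same 4 were higher, beside 27.6% of all genes, and *Ezh2* and *Suz12* were lower, beside 11%. There median-ratio scaling gave 3 higher and 5 lower and upper-quartile scaling 2 higher and 5 lower, with *Eed*, *Jarid2* and *Bmi1* added to those lower. With the threshold used by the study (more than 2-fold and unadjusted p under 0.05), 1 member was higher after *Mfn1* knockdown (5.02% of all genes) and 0 were lower (9.05%). After H3.3 knockdown 3 were higher (*Ezh1*, *Ring1* and *Kdm2b*, beside 23.9%) and 0 were lower (9.39%). Between the knockdowns 3 were higher (29.1%) and 3 lower (*Ezh2*, *Suz12* and *Bmi1*, beside 11%). With so few members, these counts describe the members and set them apart from no other genes.

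The centre of all genes moved with the scaling of the libraries. The median log2 fold change over the genes tested was -0.085 after *Mfn1* knockdown and 0.26 after H3.3 knockdown, and the latter became -0.0044 with median-ratio and -0.066 with upper-quartile scaling. Higher genes were 70.5% of all calls in H3.3-KD, and 53.9% and 49.0% with these scalings. Between the knockdowns they were 71.4%, 55.1% and 51.1%. Relative to the median of all genes, the changes in H3.3-KD were 1.82 for *Ring1*, 1.02 for *Ezh1*, 1.01 for *Kdm2b* and 0.56 for *Rnf2*, and -0.84 for *Suz12*, -0.64 for *Ezh2* and -0.63 for *Bmi1*. The members' own median was 0.31 after H3.3 knockdown, 0.32 after *Mfn1* knockdown and -0.062 between the knockdowns.

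Base composition differed widely among the members. The longest transcripts of *Ring1*, *Kdm2b* and *Ezh1* are 56.9%, 52.6% and 51.3% GC, the 3 highest values of the 10, and those of *Rnf2*, *Bmi1* and *Suz12* are 39.5%, 40.2% and 41.6% GC, the 3 lowest. After a smooth dependence on GC content and length had been subtracted within each library, the change in H3.3-KD was 1.26 for *Ring1* (adjusted p = 0.0235), 0.90 for *Ezh1* (adjusted p = 0.102), 0.86 for *Kdm2b* (adjusted p = 0.0627) and 1.09 for *Rnf2* (adjusted p = 0.0170). *Ring1* and *Rnf2* thus passed the test after this step and *Ezh1* and *Kdm2b* did not. *Ezh2* in MFN1-KD was 1.34 (adjusted p = 0.0475).

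**Figure D4:**
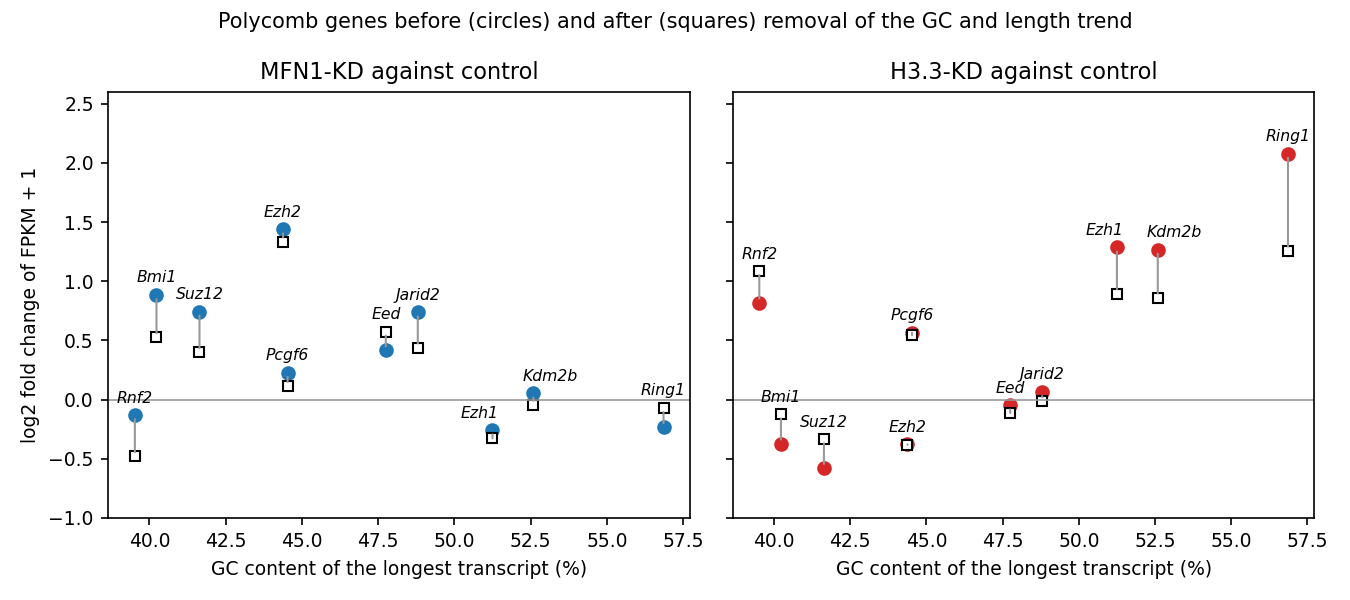
Log2 fold change of FPKM + 1 of the 10 Polycomb genes against the GC content of the longest transcript (%), for MFN1-KD and H3.3-KD against control. Circles are the values as tested and squares those after a smooth dependence on GC content and length was subtracted within each library. In H3.3-KD, *Ring1* moves from 2.08 to 1.26 and *Rnf2* from 0.82 to 1.09.

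Exons of some members overlap those of other genes in GENCODE M21 (GRCm38), and the strand setting of the counting is not stated, so their reads could not be assigned with certainty. *Rnf2* (chromosome 1, 151458004 to 151500955, minus strand) overlaps *Trmt1l* on the opposite strand, which measured 6.55 to 19.9 FPKM over the 9 libraries and was not called. *Kdm2b* (chromosome 5, 122870665 to 122989823, minus strand) overlaps *Rnf34* on the opposite strand (11.1 to 20.2 FPKM, not called). *Kdm2b* also overlaps *Gm44574* and *A930024E05Rik*, and *Eed* (chromosome 7, 89954654 to 89980983, minus strand) overlaps *E230029C05Rik*, and these genes reached at most 1.25, 0.17 and 2.67 FPKM. *Ezh2* (chromosome 6, 47530139 to 47595341, minus strand) and *Suz12* (chromosome 11, 79993106 to 80034123, plus strand) overlap *Gm26625* and *Gm26563*, which were not analysed here. *Ezh1* (chromosome 11, 101191115 to 101226463, minus strand), *Ring1* (chromosome 17, 34020792 to 34024680, minus strand), *Bmi1* (chromosome 2, 18677018 to 18686629, plus strand) and *Pcgf6* (chromosome 19, 47033617 to 47050906, minus strand) overlap no other gene.

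Other genes of the pathway were taken from 6 lists, of which 3 hold 33 subunits and partners of the complexes and 3 hold 52 erasers, imprinted genes and developmental targets. Of these 85 genes 49 were tested. In MFN1-KD 0 of the 49 rose or fell at an adjusted p under 0.05 with limma (1.15% and 2.2% of all genes), and at an unadjusted p under 0.05 the counts were 11 higher (9.21% of all genes) and 2 lower (14%). After H3.3 knockdown 16 were higher (21.8% of all genes) and 0 lower (9.12%), and by the unadjusted p these counts were 20 (28.9%) and 1 (13.2%). Of the 16, 13 are subunits or partners, and 2, *Cbx8* among them, passed the filter only through their level in H3.3-KD. H3.3-KD exceeded MFN1-KD for 13 genes (27.6% of all genes) and was below it for 3 (11%). The counts per list given next stand beside the same 21.8%. The median log2 fold change of the 49 was 0.32 after *Mfn1* knockdown and 0.60 after H3.3 knockdown, beside -0.085 and 0.26 for all genes.

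Subunits of canonical PRC1 were tested for 9 of 11 genes, and 4 rose in H3.3-KD, among them *Cbx7*, *Cbx8* and *Phc2*. *Cbx7*, a chromodomain reader of H3K27me3, measured 1.92, 1.11 and 0.89 FPKM in control and 8.09, 7.98 and 9.77 in H3.3-KD (2.08, adjusted p = 0.00129). In MFN1-KD *Cbx7* measured 2.30, 3.69 and 2.01 FPKM, above every control library without passing the test (0.67, adjusted p = 0.256). *Cbx8*, a reader of the same family, was tested only because of its level in H3.3-KD. It measured 0.19, 0.34 and 0.12 FPKM in control and 1.27, 4.68 and 5.53 in H3.3-KD (1.85, adjusted p = 0.0111, and 1.13, adjusted p = 0.0755, with the GC and length trend subtracted). In MFN1-KD *Cbx8* overlapped with control. In H3.3-KD both genes were above every control library, at levels that remained under 10 FPKM. Of the variant PRC1 subunits and partners, 12 of 13 were tested and 5 rose (*Yaf2*, *Pcgf3*, *L3mbtl2*, *E2f6* and *Dcaf7*). *L3mbtl2*, a partner of PCGF6, measured 11.4, 6.93 and 6.83 FPKM in control and 22.5, 32.0 and 39.2 in H3.3-KD (1.78, adjusted p = 0.00229). *Dcaf7*, a partner of the PCGF3 and PCGF5 complexes, went from 5.79, 6.67 and 7.02 to 18.1, 23.0 and 21.6 FPKM (1.54, adjusted p = 0.00762). In MFN1-KD *Dcaf7* measured 1.97, 5.53 and 2.36 FPKM, below control without passing the test (-0.89, adjusted p = 0.160).

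Accessory subunits and other partners of PRC2 were tested for 7 of 9 genes, and 4 rose in H3.3-KD (*Rbbp4*, *Aebp2*, *Epop* and *AU022751*, the symbol under which *Ezhip* was listed). *Rbbp4*, a histone-binding subunit shared with other chromatin complexes, went from 45.9, 29.1 and 24.6 FPKM in control to 138, 153 and 150 in H3.3-KD (2.16, adjusted p = 0.000307, called in 19 of 19 alternatives). *Epop*, which joins PRC2 to elongin, went from 1.00, 0.71 and 0.48 to 6.13, 11.02 and 4.46 FPKM (2.18, adjusted p = 0.00248, and 0.63, adjusted p = 0.266, with the GC and length trend subtracted). Both genes also lay above every control library in MFN1-KD without passing the test. There *Rbbp4* measured 55.1, 59.5 and 48.1 FPKM (0.74, adjusted p = 0.126) and *Epop* 2.37, 4.68 and 2.31 FPKM (1.215, adjusted p = 0.103). Of the genes whose products erase the Polycomb marks, 9 of 10 were tested, and in H3.3-KD 0 of them passed the test (at an unadjusted p under 0.05 with limma, 1 was above and 1 below control).

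**Figure D5:**
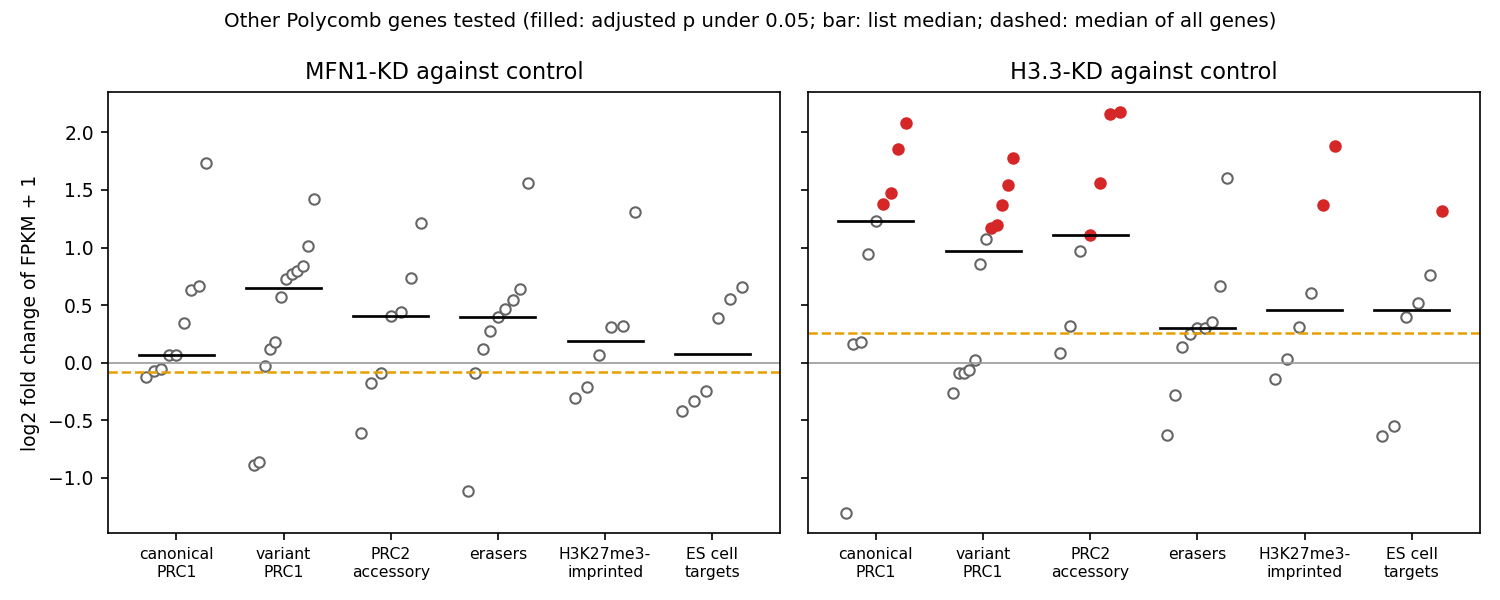
Log2 fold change of FPKM + 1 of the 49 other Polycomb genes tested, by list, in MFN1-KD and H3.3-KD against control. Filled points had an adjusted p under 0.05, bars are list medians and the dashed line is the median of all genes. No point is filled in MFN1-KD, and 16 are filled in H3.3-KD, 4, 5, 4, 0, 2 and 1 from the first list to the last.

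Developmental genes under Polycomb control in embryonic stem cells mostly did not reach the filter. Of 32 developmental regulators that are Polycomb targets in embryonic stem cells, 6 reached the filter, and 1 rose in H3.3-KD. This was *Gata4*, a factor of primitive endoderm, at 20.1, 16.8 and 14.7 FPKM in control and 35.1, 40.4 and 59.8 in H3.3-KD (1.32, adjusted p = 0.00791, and 0.39, adjusted p = 0.328, with the GC and length trend subtracted). The other 26 stayed at or below 3.44 FPKM in every library and were not tested, so no rise or fall in them could be called. Of 10 genes imprinted by maternal H3K27me3, 6 were tested and 2 rose in H3.3-KD. *Etv6*, a transcriptional repressor, went from 2.53, 2.34 and 1.74 to 7.85, 11.4 and 13.8 FPKM (1.88, adjusted p = 0.00205). *Jade1*, a subunit of a histone acetyltransferase complex, went from 3.65, 1.88 and 1.3 to 8.44, 9.38 and 4.42 FPKM (1.37, adjusted p = 0.0406, and 0.110 to 0.149 when either H3.3-KD replicate 1 or 2, or control replicate 2 or 3, was left out). The call of *Jade1* held in 10 of 18 alternatives. It was also lost with median-ratio (adjusted p = 0.0609) and upper-quartile scaling (0.0846), with no filter (0.101) and with the GC and length trend subtracted (0.0533). *Jade1* was at 5.10, 12.5 and 4.74 FPKM in MFN1-KD (1.31, adjusted p = 0.121).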

How the data were processed

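RNA of 8-cell mouse embryos was measured in 3 groups of 3 libraries. The authors made Smart-Seq2 libraries, and per the labels the reads were trimmed with cutadapt 1.16 and aligned by STAR to mm10. Values were deposited as FPKM by gene symbol, and the program, annotation and strand setting behind them are not given in the sources used here. The worth of 1 fragment was estimated as the most frequent low value of FPKM times exon length in short genes, sought only within a preset range. By this estimate 1 fragment in 1 kb was worth about 0.069 to 0.093 FPKM, or roughly 10.8 to 14.5 in units of 1e6 fragments per library. Whole reads could not be recovered, so no count test, counting interval or detection floor was used, and the test was limma where the study used Deseq2. Of 55335 symbols, 53424 matched 1 gene of GENCODE M21.

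The 13011 genes whose mean reached 1 FPKM were fitted as log2(FPKM + 1) with limma 3.58.1 (trend and robust options, R 4.3.3), without covariates, in one model of all libraries with 3 comparisons. Both knockdowns share the control libraries. These cancel in the fold change of the direct comparison of the knockdowns, but enter its estimate of spread and its filter. For paralog ratios a two-sided exact permutation test was used. The members and lists were chosen with earlier results of these data known. Besides the members and siRNA targets, the text describes at most the 2 genes of smallest p in each direction of each list and comparison with control, among those with an adjusted p under 0.05. Other called genes are named with their counts, except 1 that is not reported here. The alternatives were 2 scalings, no filter on low values, a minimum mean of 10 FPKM, 0.1 as pseudocount, fits of 6 libraries, a block for the replicate number, subtraction of a GC and length trend within libraries (splines with 5 degrees of freedom, 98.1% of genes), library weights, and each library left out in turn. No pair of libraries was identical. Python 3.11.15, pandas 2.3.3, scipy 1.17.1 and matplotlib 3.10.9 were used.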

Additional observations from a re-analysis of the deposited data

How the results depend on the processing

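The number of members called in MFN1-KD (1, *Ezh2*) became 0 with no filter, in the fit of the 6 libraries compared, with the replicate block, and with the block and the GC and length trend removed, and was 0 to 1 with each library left out (0 without any 1 control library, H3.3-KD replicate 1 or 2, or MFN1-KD replicate 3). In H3.3-KD the members called (4) became 2 with no filter, with a mean of at least 10 FPKM (which leaves out *Ezh1* and *Ring1*) and with the GC and length trend removed, and were 1 to 4 with each library left out (1 without control replicate 3). With library weights they became 6, as *Pcgf6* (0.49, adjusted p = 0.0299) and *Suz12* (-0.64, adjusted p = 0.00932) were added. The other Polycomb genes called in MFN1-KD (0) became 6 with library weights and 0 to 1 with a library left out. In H3.3-KD they (16) became 7 with a mean of at least 10 FPKM, 8 with the GC and length trend removed and 28 with library weights, and were 10 to 19 with a library left out (10 without control replicate 3). Between the knockdowns they (16) became 9 with a mean of at least 10 FPKM.

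The *Rnf2* to *Ring1* ratio in MFN1-KD (0.10) became -0.41 with the GC and length trend removed and -0.44 to 0.44 with a library left out. Differences that did not pass the test changed sign as follows, with ranges over the libraries left out. In MFN1-KD, *Ezh1* became 0.022 with library weights and ranged from -0.46 to 0.14 (positive without replicate 3), *Ring1* from -0.44 to 0.071 (positive without replicate 3), *Rnf2* from -0.37 to 0.018 (positive without replicate 2), and *Kdm2b* became -0.043 with the trend removed, with and without the block, and ranged from -0.18 to 0.30 (negative without control replicate 3 or MFN1-KD replicate 2). In H3.3-KD, *Jarid2* became -0.26 and -0.33 with median-ratio and upper-quartile scaling and -0.015 with the trend removed, with and without the block, and ranged from -0.13 to 0.28 (negative without control replicate 3 or H3.3-KD replicate 1 or 2). *Eed* ranged from -0.12 to 0.045 (positive without H3.3-KD replicate 2), and *Bmi1* became 0.22 with library weights and ranged from -1.06 to 0.0041 (without H3.3-KD replicates 2 and 3). Between the knockdowns *Pcgf6* became -0.076 with median-ratio and -0.15 with upper-quartile scaling. The cause was not tested. Over all genes, the calls in MFN1-KD ranged from 0 to 570 higher (150 as reported) and 0 to 823 lower (286), in H3.3-KD from 1589 to 4734 (2841) and 669 to 2246 (1187), and between the knockdowns from 1949 to 3840 (3591) and 1006 to 2374 (1437).

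With 3 libraries per group, the correlations given next cannot decide whether replicate numbers pair the libraries. The main model used no pairing. The deviations of 9 same-numbered pairs from their group means correlated at -0.053 to 0.16 and those of 18 other pairs at -0.12 to 0.072, and a library correlated best with its own number in 7 of 18 cases. With the block, *Ezh2* in MFN1-KD had an adjusted p of 0.0574, and all genes called were 6 higher and 25 lower. At a given gene length, low FPKM values, such as those of *Ring1* and *Cbx8* in control, rest on fewer fragments than high ones. Their exact number is unknown.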
